A study of Rattus norvegicus with 9 samples.

Results

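Interferon-stimulated genes are the genes that cells switch on when they sense interferon, the secreted signal of antiviral defense. Those described here are Isg15, Ifit2, Ifit3, Mx1, Mx2, Oas1a, Irf7, Stat2, and Usp18, taken from the deposited table by gene name. They are 9 of the 35362 genes in that table, and 7 of them were among the 14770 genes with enough counts to be tested. The other two, Mx1 and Mx2, are given by their counts.

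RNA was measured in mesenchymal stem cells grown from the groin fat (SASCs), the perirenal fat (PASCs), and the epididymal fat (EASCs) of male Sprague Dawley rats aged 6 weeks, of which the perirenal and epididymal depots are visceral. Each group had 3 samples, all of cells at passage 3 in culture, and the labels name no interferon or other agent and no difference but the depot. RNA was taken from wells of culture plates, with more replicates in a group per the methods than the 3 samples analysed here, and whether the wells of a depot held cells of separate rats is not given in the sources used here. The p-values therefore measure the spread between these samples, which may be technical. These are bulk samples, in which fewer cells of a type and less RNA per cell cannot be told apart.

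Type I interferons bind the receptor pair IFNAR1 and IFNAR2, and the Janus kinases JAK1 and TYK2 then phosphorylate STAT proteins. One of them, STAT2, is part of the complex ISGF3 together with IRF9, and this complex binds the interferon-stimulated response element (ISRE) in the promoters of its target genes. Even without an infection, stromal cells can hold a low, standing level of such transcripts. Among the genes described here, Stat2 encodes a subunit of ISGF3 and Irf7 a transcription factor that amplifies interferon production. Ifit2 and Ifit3 encode proteins that bind viral RNA or its partners, Oas1a an enzyme that makes the signal for RNA decay by RNase L, and Mx1 and Mx2 GTPases that block viral replication. Isg15 encodes a ubiquitin-like modifier, and Usp18 the protease that removes it from proteins and that also restrains signaling at IFNAR2.

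On rn6, the build of the deposited positions, Ifit2 (chr1:252894663-252900727, plus strand) and Ifit3 (chr1:252906234-252911377, plus strand) were neighbors with 5506 bases between them. Mx1 (chr11:37891150-37916777, minus strand) and Mx2 (chr11:38035308-38062685, plus strand) lay 118530 bases apart. The other genes were Isg15 (chr5:173624862-173629131, minus strand), Oas1a (chr12:41200681-41211393, plus strand), Irf7 (chr1:214249388-214252909, minus strand), Stat2 (chr7:2691073-2707165, plus strand), and Usp18 (chr4:153812312-153834374, plus strand). The span of Usp18 was overlapped on the same strand by Prr21, which had 0 counts in all 9 samples. Oas1a belongs to a family of close copies, and reads shared with them may have been counted for either gene.

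RefSeq promoters on GRCr8 were matched for 5 of the 9 genes, namely Ifit3, Mx1, Oas1a, Irf7, and Stat2. In the 250 bases before the start site, the ISRE core, GAAA followed by any 2 bases and a second GAAA, was searched on both strands, as TTTC, any 2 bases, and TTTC on the reverse. It was present in 3 of the 5 promoters, in 37 of 72 promoters (51.4%) of 68 other interferon-stimulated genes, and in 3.41% of all 33469 promoters of this length. The 3 sequences with a match are shown because Ifit3 and Oas1a were lowest in PASCs whereas Irf7 was highest in EASCs, and that of Stat2 because it encodes the ISGF3 subunit. They run from 5′ to 3′ on the strand of the gene, and capitals mark the ISRE core. Their positions are Ifit3 (chr1:241527076-241527325, plus strand), Oas1a (chr12:41330216-41330465, plus strand), Irf7 (chr1:205800024-205800273, minus strand), and Stat2 (chr7:1286840-1287089, plus strand).
Ifit3: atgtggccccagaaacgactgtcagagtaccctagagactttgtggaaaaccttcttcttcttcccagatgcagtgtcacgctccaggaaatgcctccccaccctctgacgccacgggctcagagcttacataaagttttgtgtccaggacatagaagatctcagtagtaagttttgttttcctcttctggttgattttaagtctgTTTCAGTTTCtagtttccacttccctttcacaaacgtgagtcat
Oas1a: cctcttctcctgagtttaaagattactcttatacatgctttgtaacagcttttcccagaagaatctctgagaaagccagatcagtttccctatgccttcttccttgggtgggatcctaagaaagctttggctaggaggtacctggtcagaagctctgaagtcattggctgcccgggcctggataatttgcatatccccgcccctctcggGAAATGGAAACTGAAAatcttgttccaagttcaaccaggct
Irf7: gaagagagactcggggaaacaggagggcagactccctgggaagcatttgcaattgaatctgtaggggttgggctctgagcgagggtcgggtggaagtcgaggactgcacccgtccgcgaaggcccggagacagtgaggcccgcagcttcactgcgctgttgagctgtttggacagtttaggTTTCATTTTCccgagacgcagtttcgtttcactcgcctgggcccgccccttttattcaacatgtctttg
Stat2: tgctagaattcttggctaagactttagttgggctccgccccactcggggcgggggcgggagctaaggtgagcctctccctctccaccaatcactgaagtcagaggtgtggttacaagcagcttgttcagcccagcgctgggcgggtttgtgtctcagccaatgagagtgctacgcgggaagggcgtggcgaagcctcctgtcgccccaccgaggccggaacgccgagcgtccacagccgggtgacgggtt

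The Ifit3 match began at position -44 from the start site and the Irf7 match at -69, both on the reverse strand. Oas1a held 2 matches that overlap each other, at -41 and -35. Mx1 and Stat2 held none in this window. The core of the gamma-activated sequence (GAS) of the type II interferon response, TTCNNNGAA, reads the same on both strands and was found in 1 of the 5 promoters, that of Oas1a at -199, and in 7.67% of all promoters. A match is a description of the letters and not a binding site.

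Total counts ranged from 17591916 to 30299032 per sample, and levels are given as CPM, the count scaled to a fixed library size, after TMM scaling, a scaling that is little affected by a few abundant genes. On this scale 3 counts corresponded to 0.104 to 0.159 CPM, and this limit covers counting error only. Ribosomal RNA genes took 10.4% to 15.5% of the counts in SASCs, against 22.4% to 32.9% in PASCs and 15.9% to 40.3% in EASCs, and with these genes removed before TMM the numbers of called interferon-stimulated genes given below were the same in each comparison. Summed over 8 mesenchymal stem cell markers, the level was 4137 to 4265 CPM in SASCs, against 3784 to 3960 CPM in PASCs and 4962 to 5032 CPM in EASCs, but the members of this sum moved in opposite directions. Pdgfra was at 1543 CPM in SASCs, against 278 CPM in PASCs and 235 CPM in EASCs in the group means, with log2 fold changes of -2.47 in PASCs and -2.72 in EASCs, whereas Itgb1 was at 1046, 1814, and 2951 CPM and Eng at 60.0, 89.8, and 204 CPM. The marker Cd34 was at 0.581 to 3.9 CPM in the group means.

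Without stimulation the interferon-stimulated genes were unequal in level. Per kilobase of gene, as FPKM, which divides CPM by the gene's length, Ifit2 was highest in each depot, at a mean of 34.0 FPKM in SASCs, against 16.7 in PASCs and 16.1 in EASCs. Stat2 followed with 17.2, 8.89, and 9.77 FPKM. Ifit2 thus stood at the 89.7th percentile of all tested genes in SASCs and at the 78.5th and 78.0th in PASCs and EASCs. Ifit3, the neighbor of Ifit2, was at 1.29 FPKM in SASCs, against 0.182 in PASCs and 0.688 in EASCs. Mx1 and Mx2 were at or below 0.0530 FPKM in every group mean.

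**Figure D1:**
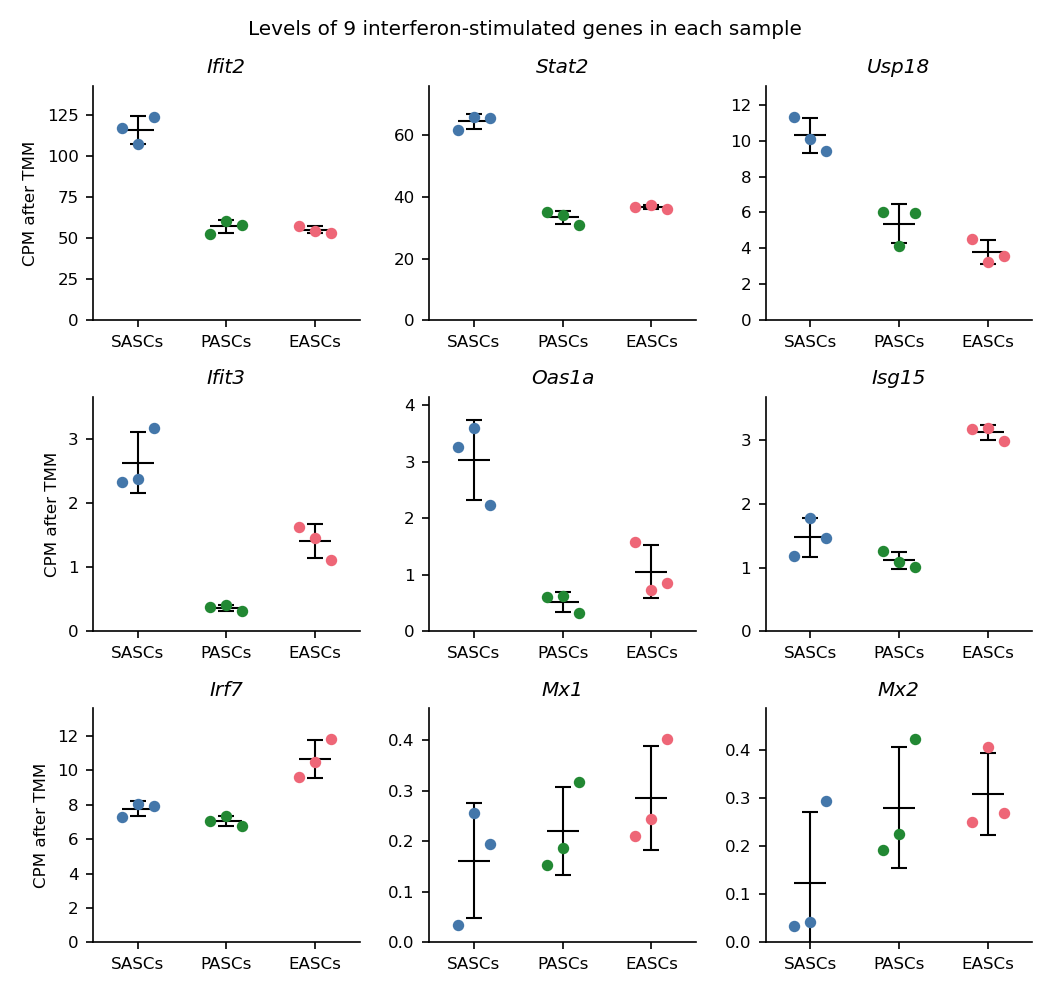
Level of each of the 9 interferon-stimulated genes in CPM after TMM (vertical axes, linear, each with its own range) in SASCs, PASCs, and EASCs. Points are single samples and bars the mean ± SD (n = 3), and the lower bar of Mx2 in SASCs stops at the axis; Ifit2, Stat2, Usp18, Ifit3, and Oas1a were highest in SASCs, whereas Isg15 and Irf7 were highest in EASCs.

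Stat2, the ISGF3 subunit, stood at 61.8, 66.1, and 65.7 CPM in the SASC samples, at 35.0, 34.2, and 31.0 CPM in PASCs, and at 36.9, 37.3, and 36.0 CPM in EASCs. All SASC samples lay above all others, and the PASC samples lay just below those of EASCs. The log2 fold change was -0.81 ± 0.07 (SE) in EASCs against SASCs (adjusted p = 1.58e-11) and -0.95 ± 0.07 in PASCs against SASCs (adjusted p = 7.27e-13). EASCs and PASCs did not pass the test against each other, with a log2 fold change of 0.13 ± 0.07 (adjusted p = 0.144).

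Irf9, the DNA-binding subunit of ISGF3, was at 25.4 ± 1.84 CPM (SD, n = 3) in SASCs, against 19.9 ± 1.40 CPM in PASCs and 23.4 ± 1.04 CPM in EASCs. It fell in PASCs by 0.35 on the log2 scale (adjusted p = 7.05e-04), and in EASCs its log2 fold change was -0.12 (adjusted p = 0.206).

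Ifit2, an RNA-binding antiviral effector, stood at 117, 107, and 124 CPM in SASCs, against 52.6, 60.7, and 58.0 CPM in PASCs and 57.3, 54.5, and 53.3 CPM in EASCs. The SASC samples were about double all others, and the PASC and EASC samples overlapped. Against SASCs the log2 fold change was -1.07 ± 0.07 in EASCs (adjusted p = 3.1e-14), and the value for PASCs was -1.02 ± 0.06 (adjusted p = 9.40e-14). The second of these is close to the 2-fold threshold and fell short of it, at -0.97 or -0.96, without SASCs replicate 3 or without PASCs replicate 1, and at -0.98 on log2(FPKM + 1). EASCs against PASCs gave -0.05 ± 0.07 (adjusted p = 0.603).

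Ifit3, which binds its relatives IFIT1 and IFIT2 in complexes, had a pattern unlike that of its neighbor. Its level was 2.33, 2.38, and 3.17 CPM in SASCs, against 0.383, 0.411, and 0.318 CPM in PASCs and 1.63, 1.46, and 1.12 CPM in EASCs. The depots did not overlap, and EASCs stood between the other two. These levels rest on 56 to 67 counts in SASCs, against 6 to 11 in PASCs and 25 to 39 in EASCs. PASCs were 6.89-fold below SASCs, with a log2 fold change of -2.78 ± 0.34 (adjusted p = 4.65e-08). EASCs were 1.85-fold below SASCs, with a log2 fold change of -0.89 ± 0.28 (adjusted p = 0.00654), which became -1.01 without EASCs replicate 1. EASCs were 3.71-fold above PASCs, with a log2 fold change of 1.89 ± 0.36 (adjusted p = 1.58e-04). On log2(CPM + 1) and log2(FPKM + 1), scales that compress genes of low level, limma gave 0.81 and 0.51 for this comparison, under the 2-fold threshold, and on the second scale PASCs against SASCs gave -0.95.

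Oas1a, the sensor of double-stranded RNA that makes oligoadenylates, had the same order of depots as Ifit3. It was at 3.27, 3.61, and 2.25 CPM in SASCs, against 0.612, 0.636, and 0.318 CPM in PASCs and 1.59, 0.730, and 0.850 CPM in EASCs. No sample of one depot overlapped another, although EASCs replicate 1 lay above the other EASC samples. The counts behind these levels were 46 to 94 in SASCs, against 6 to 17 in PASCs and 18 to 38 in EASCs. Against SASCs the log2 fold change was -2.50 ± 0.35 in PASCs (adjusted p = 4.68e-07), and the value for EASCs was -1.53 ± 0.32 (adjusted p = 1.23e-04). Between EASCs and PASCs it was 0.97 ± 0.39 (adjusted p = 0.0612). With 1 sample left out it ran from 0.55 to 1.18, the highest without EASCs replicate 2 (adjusted p = 0.0335). On log2(CPM + 1) and log2(FPKM + 1) the value for EASCs against SASCs was -0.98 and -0.84, under the 2-fold threshold.

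Isg15 and Usp18 encode the modifier and its protease, and EASCs had the highest mean of the first and the lowest of the second. Isg15 was at 1.18, 1.78, and 1.46 CPM in SASCs, against 1.26, 1.08, and 1.01 CPM in PASCs and 3.18, 3.2, and 3.0 CPM in EASCs. All EASC samples were higher than the rest, and the samples of SASCs and PASCs overlapped. It rose in EASCs by 1.09 ± 0.25 on the log2 scale against SASCs (adjusted p = 3.92e-04) and by 1.47 ± 0.26 against PASCs (adjusted p = 5.90e-05). The first of these was 0.94 without SASCs replicate 1 and 0.69 without TMM, under the 2-fold threshold. On log2(CPM + 1) and log2(FPKM + 1) the values were 0.74 and 0.68 against SASCs and 0.96 and 0.87 against PASCs, also under it. PASCs against SASCs gave -0.38 ± 0.28 (adjusted p = 0.228). The gene had 19 to 79 counts per sample.

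Usp18 was at 11.3, 10.1, and 9.42 CPM in SASCs, against 6.04, 4.11, and 5.98 CPM in PASCs and 4.52, 3.24, and 3.58 CPM in EASCs. SASCs lay above all other samples, whereas the lowest PASC sample was below the highest EASC sample. Against SASCs its log2 fold change was -1.45 ± 0.16 in EASCs (adjusted p = 1.12e-08), and the value for PASCs was -0.95 ± 0.16 (adjusted p = 6.29e-06). The value for PASCs passed the 2-fold threshold when SASCs replicate 3, PASCs replicate 1, or PASCs replicate 3 was left out, at -1.0, -1.05, and -1.03, and without TMM, at -1.26, where the all-gene median was -0.33. EASCs against PASCs gave -0.50 ± 0.17 (adjusted p = 0.0291), a difference below the fold threshold.

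Irf7, the transcription factor that amplifies interferon production, was at 7.27, 8.06, and 7.96 CPM in SASCs, against 7.08, 7.36, and 6.78 CPM in PASCs and 9.63, 10.5, and 11.9 CPM in EASCs. The EASC samples were all higher than the rest, and SASCs and PASCs overlapped. Its log2 fold change in EASCs was 0.46 ± 0.12 against SASCs (adjusted p = 0.00161) and 0.59 ± 0.12 against PASCs (adjusted p = 4.69e-04), below the 2-fold threshold in both. With total counts in place of TMM the first of these was 0.05. The all-gene median then moved to -0.39, and Irf7 lay 0.44 above it. PASCs against SASCs gave -0.13 ± 0.13 (adjusted p = 0.374).

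Mx1 and Mx2, the GTPases often used as readouts of an interferon response, were hardly detected. Mx1 had 1, 6, and 4 counts in SASCs, against 4, 5, and 6 in PASCs and 5, 6, and 9 in EASCs. Mx2 had 1, 1, and 6 counts in SASCs, against 5, 6, and 8 in PASCs and 6, 10, and 6 in EASCs. Both genes overlapped between the depots or differed by a few counts. In a fit without the filter, over 22505 genes, the adjusted p of Mx1 was 0.491 in EASCs and 0.741 in PASCs against SASCs, and that of Mx2 was 0.229 and 0.315. A difference between the depots was therefore not detectable at this depth.

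**Figure D2:**
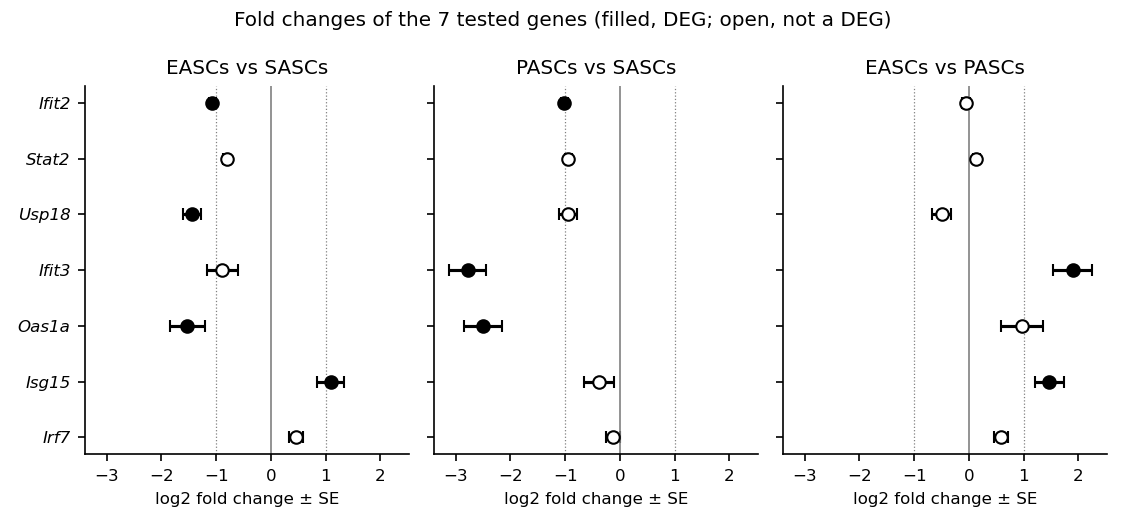
Log2 fold change with its SE (horizontal axes) of the 7 tested interferon-stimulated genes in EASCs against SASCs, PASCs against SASCs, and EASCs against PASCs, from one model of 9 samples. Filled points are DEGs and dotted lines mark a 2-fold change; Ifit2 had nearly equal values of -1.07 and -1.02 in both comparisons with SASCs, while Isg15 had 1.09 and -0.38.

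Counted over the 7 tested genes, EASCs against SASCs gave 1 upregulated DEG (Isg15) and 3 downregulated DEGs (Ifit2, Oas1a, and Usp18), where a DEG passed a 2-fold change and an adjusted p of 0.05. Over all genes tested, 27.8% were DEGs in this comparison, 13.6% upregulated and 14.2% downregulated. At any fold change, 2 of the 7 rose and 5 fell, beside 35.5% and 34.3% of all genes, or 69.7% in either direction. The samples of the depots did not overlap for 7 of 7 genes, beside 72.1% of all genes. The median log2 fold change of the 7 genes was -0.89 and that of all genes 0.01. Without TMM, the counts were 0 upregulated and 5 downregulated, beside 9.13% and 23.2% of all genes (32.3% in either direction).

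PASCs against SASCs gave 3 downregulated DEGs (Ifit2, Ifit3, and Oas1a), beside 14.9% of all genes, and DEGs in either direction were 26.9% of all genes. Upregulated DEGs numbered 0 of 7, beside 12.0% of all genes, and this count was also 0 by edgeR at an unadjusted p under 0.05 and by DESeq2. At any fold change 5 of the 7 fell, beside 34.6% of all genes (69.2% in either direction), with a median log2 fold change of -0.95 against -0.01 for all genes. The same 5 genes, all but Isg15 and Irf7, had samples that did not overlap, beside 71.6% of all genes. Without TMM the downregulated DEGs numbered 5, beside 21.5% of all genes (8.54% upregulated and 30.0% in either direction). The comparisons of EASCs and PASCs share the SASC samples, so their values are set side by side and are not independent.

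EASCs against PASCs gave 2 upregulated DEGs (Isg15 and Ifit3), beside 5.19% of all genes, and DEGs in either direction were 7.39% of all genes. Downregulated DEGs numbered 0, beside 2.20% of all genes. This second count was 1 by edgeR at an unadjusted p under 0.05 at any fold change (Usp18) and 0 by DESeq2. At any fold change 3 rose and 1 fell, beside 16.1% and 14.5% of all genes (30.7% in either direction), and the median log2 fold change was 0.59. Samples did not overlap for 5 of 7 genes, all but Ifit2 and Usp18, beside 41.2% of all genes. Without TMM the DEGs were again 2 up and 0 down, beside 4.40% and 2.44% of all genes (6.84% in either direction).

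Ratios between counts of 2 genes in the same sample do not depend on the scaling between samples, and 3 such ratios, chosen after the levels had been seen, were compared. Ifit3 had 2.00, 2.22, and 2.56 counts per 100 counts of Ifit2 in SASCs, against 0.727, 0.678, and 0.548 in PASCs and 2.85, 2.68, and 2.1 in EASCs. The SASC and EASC samples overlapped (two-sided exact permutation test, p = 0.4), and all PASC samples were lower than both (exact p = 0.1, the smallest that 3 samples against 3 allow, and 0.129 with Benjamini-Hochberg adjustment over the 9 comparisons of ratios). Isg15 had 14.5 ± 3.71 counts per 100 counts of Usp18 in SASCs, against 21.4 ± 4.79 in PASCs and 84.3 ± 14.2 in EASCs (SD, n = 3). The EASC samples, at 70.4, 98.8, and 83.8, lay above all others (exact p = 0.1, adjusted 0.129), and those of SASCs and PASCs overlapped (exact p = 0.2, adjusted 0.225).

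Irf7 had 12.0 ± 0.238 counts per 100 counts of Stat2 in SASCs, against 21.2 ± 0.866 in PASCs and 29.0 ± 3.51 in EASCs (SD, n = 3), with no overlap between depots. Each of these 3 comparisons had an exact p of 0.1 (adjusted 0.129), and no comparison of ratios could reach 0.05 in this design.

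**Figure D3:**
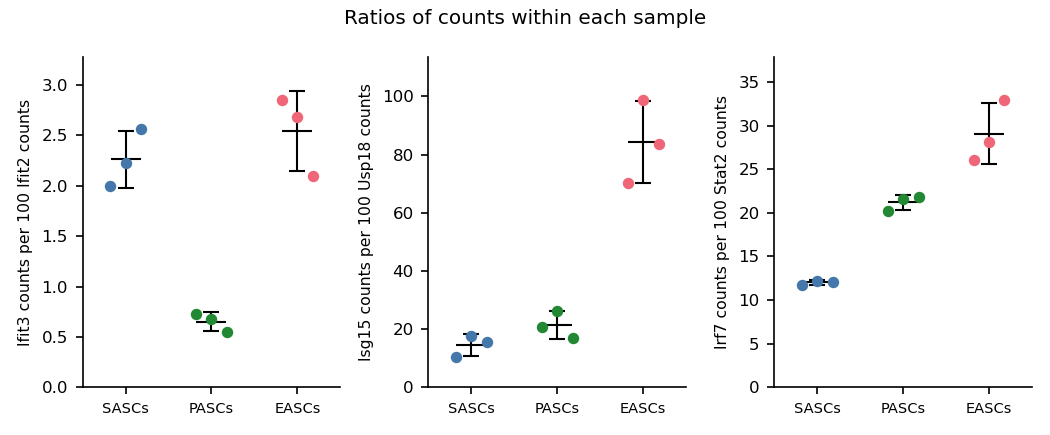
Counts of one gene per 100 counts of another in the same sample (vertical axes, linear) for Ifit3 over Ifit2, Isg15 over Usp18, and Irf7 over Stat2. Points are the 9 samples and bars the mean ± SD (n = 3); Ifit3 over Ifit2 was lowest in PASCs at 0.651, and Isg15 over Usp18 was highest in EASCs at 84.3.

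The interferons themselves had few counts or none. Of 12 ligand genes looked for, 11 were in the table, 0 were tested, and 7 had 0 counts in all 9 samples. Ifnb1, the first type I interferon made by stromal cells, and Ifng, the type II interferon, had 0 counts in every sample, which allows up to 3 counts or 0.159 CPM per library. The ligands together summed to 1 to 10 counts in SASCs, against 1 to 4 in PASCs and 2 to 8 in EASCs.

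Most receptors and Janus kinases were lower in both visceral depots. Of 9 genes, 4 were downregulated DEGs and 0 upregulated DEGs in EASCs and likewise in PASCs against SASCs, and 7 of 9, all but Tyk2 and Ifngr2, fell at any fold change in each comparison. Over all genes, downregulated DEGs were 14.2% in EASCs and 14.9% in PASCs, and 34.3% and 34.6% fell at any fold change. Upregulated DEGs were 13.6% and 12.0% of all genes. The count of 0 upregulated was also 0 by edgeR at an unadjusted p under 0.05 and by DESeq2. Ifnar1, which binds type I interferons, was at 132 ± 3.07 CPM (SD, n = 3) in SASCs, against 61.3 ± 0.946 CPM in PASCs and 64.8 ± 0.461 CPM in EASCs. Its partner Ifnar2, the docking site of USP18, was at 40.9 ± 2.18, 29.7 ± 0.691, and 28.5 ± 0.933 CPM and changed by less than 2-fold, with log2 fold changes of -0.46 in PASCs and -0.52 in EASCs.

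The other downregulated receptors were Ifngr1, of the type II receptor, with log2 fold changes of -1.19 in EASCs and -1.43 in PASCs, and Ifnlr1, of the type III receptor, with -1.62 and -1.87. The kinase Jak2 had -1.13 and -1.22. Jak1 fell by less than 2-fold, with -0.70 and -0.91, and was a DEG in both without TMM. Tyk2 did not pass the test (-0.17 with an adjusted p of 0.0759 in EASCs, and -0.11 with 0.262 in PASCs). Summed over the 9 genes, the level was 1089 to 1112 CPM in SASCs, against 547 to 581 CPM in PASCs and 614 to 625 CPM in EASCs.

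Among 8 transcription factors of the pathway, 1 was an upregulated DEG in EASCs and 0 in PASCs, and 0 were downregulated in either, beside 13.6% and 12.0% of all genes upregulated and 14.2% and 14.9% downregulated. At an unadjusted p under 0.05 and any fold change, edgeR counted 3 higher and 2 lower in EASCs and 3 higher and 3 lower in PASCs. The counts were the same at an adjusted p under 0.05. At that threshold 35.5% of all genes rose and 34.3% fell in EASCs, and 34.6% moved each way in PASCs. DESeq2 gave the DEG counts above. Without TMM, 2 were downregulated in each comparison, beside 23.2% of all genes in EASCs and 21.5% in PASCs. Irf8, a factor of myeloid cells, was the DEG, at 1.56 ± 0.494 CPM (SD, n = 3) in SASCs, against 2.75 ± 0.829 CPM in PASCs and 5.72 ± 1.23 CPM in EASCs. Among 10 inhibitors, 1 was an upregulated DEG and 1 a downregulated DEG against SASCs, in EASCs and likewise in PASCs. Of all genes, 13.6% and 14.2% were so called in EASCs, and 12.0% and 14.9% in PASCs. The median log2 fold change of the inhibitors was -0.02 in EASCs and 0.09 in PASCs. Socs3, which blocks cytokine receptor kinases, had log2 fold changes of -3.08 in EASCs and -3.11 in PASCs. It was at 324 ± 15.6 CPM in SASCs, 38.4 ± 2.79 in EASCs, and 37.6 ± 3.14 in PASCs. The phosphatase gene Ptpn6 rose by 2.05 in EASCs and 1.45 in PASCs on the log2 scale, from a mean of 1.05 CPM in SASCs. It is mainly a gene of blood cells.

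A list of innate sensors and adaptors, most of them for nucleic acids, had 11 tested genes. Against SASCs, 3 were downregulated and 1 was upregulated in each of EASCs and PASCs. Of all genes, 14.2% were downregulated and 13.6% upregulated in EASCs, and 14.9% and 12.0% in PASCs, so that the 1 upregulated gene was near the background. Without TMM, 5 were downregulated and 0 upregulated in EASCs, beside 23.2% and 9.13% of all genes. In PASCs these counts were 3 and 0, beside 21.5% and 8.54%. Ikbke, a kinase that activates IRF3 and IRF7, had log2 fold changes of -2.27 in EASCs and -2.01 in PASCs. Tlr4, a receptor of bacterial lipopolysaccharide and not of nucleic acids, had -2.26 and -2.41, and Tlr3, a receptor of double-stranded RNA, had -1.08 and -1.75. Mb21d1, which encodes the DNA sensor cGAS, rose by 1.09 and 1.26, from 1.26 ± 0.272 CPM in SASCs. The median log2 fold change of this list was -0.57 in EASCs and -0.47 in PASCs.

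Beyond the genes described, a list of 86 other interferon-stimulated genes had 80 in the table and 66 tested. In EASCs against SASCs 7 were upregulated and 9 downregulated DEGs of 66, shares near the 13.6% and 14.2% of all genes. At any fold change 15 rose and 34 fell, beside 35.5% and 34.3% of all genes. Without TMM the DEGs were 5 up and 18 down, beside 9.13% and 23.2% of all genes. In PASCs against SASCs 3 were upregulated and 18 downregulated DEGs, beside 12.0% and 14.9% of all genes, and 8 rose and 41 fell at any fold change, beside 34.6% for each direction. Without TMM the DEGs were 3 up and 29 down, beside 8.54% and 21.5% of all genes. The median log2 fold change was -0.22 in EASCs and -0.60 in PASCs. Between the visceral depots, 9 were higher in EASCs and 0 lower, beside 5.19% and 2.20% of all genes, and 27 rose and 4 fell at any fold change, beside 16.1% and 14.5%, with a median of 0.24. That count of 0 was also 0 by DESeq2 and was 6 by edgeR at an unadjusted p under 0.05 at any fold change.

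Slfn3 and Slfn5, schlafen genes linked to restraint of growth, fell in both visceral depots. Slfn5 was at 327 ± 23.2 CPM (SD, n = 3) in SASCs, against 57.4 ± 2.05 CPM in PASCs and 43.9 ± 4.39 CPM in EASCs. Slfn3 was at 125 ± 1.86, 18.2 ± 0.127, and 14.6 ± 0.858 CPM, with log2 fold changes of -3.09 in EASCs and -2.78 in PASCs. Schlafen genes are close copies of one another, and reads shared among them may have been counted for either. Ifi44l had log2 fold changes of -1.30 in EASCs and -3.14 in PASCs, on 65 to 97 counts in SASCs, 28 to 42 in EASCs, and 4 to 14 in PASCs. Rtp4, an interferon-induced chaperone of receptors, had log2 fold changes of -0.99 in EASCs and -3.01 in PASCs, so that both stood, like Ifit3 and Oas1a, lowest in PASCs.

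Among the genes that rose, Zbp1, a sensor of Z-form nucleic acids, was at 1.44 ± 0.543 CPM (SD, n = 3) in SASCs, against 12.7 ± 3.88 CPM in PASCs and 11.6 ± 2.49 CPM in EASCs. Its log2 fold changes were 3.02 in EASCs and 3.14 in PASCs. Epsti1 had 1 to 2 counts in SASCs, against 5 to 20 in PASCs and 6 to 20 in EASCs. These and Ifi27l2b, with 1.65 and 1.45 and chosen after its values were seen, were the 3 genes upregulated in both. Cmpk2, a mitochondrial nucleotide kinase, rose by 2.04 in EASCs (9 to 14 counts in SASCs and 33 to 58 in EASCs) and had 0.65 in PASCs (adjusted p = 0.177).

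The 9 genes higher in EASCs than in PASCs, named here after their values were seen, were Oasl, Rtp4, Ifi44l, Trim30, Cmpk2, Oasl2, Gbp2, Gbp5, and Bst2. Their log2 fold changes ran from 1.21 for Bst2, which encodes a tether of budding virus, to 2.12 for Oasl. Some of these rest on few counts in the PASC samples, with 5 to 9 for Oasl, 5 to 8 for Trim30, 6 to 15 for Rtp4, and 4 to 14 for Ifi44l. Bst2 was at 10.5 ± 0.764 CPM (SD, n = 3) in SASCs, against 16.4 ± 2.1 CPM in PASCs and 38.1 ± 1.28 CPM in EASCs, the same order of EASCs above the rest as Isg15 and Irf7. Gbp2, a guanylate-binding protein, was at 15.3 ± 0.684, 7.24 ± 0.973, and 17.5 ± 1.03 CPM, lowest in PASCs. Its values in SASCs and EASCs did not pass the test against each other (log2 fold change 0.20, adjusted p = 0.0889). Oas and Trim30 genes also have close copies.

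**Figure D4:**
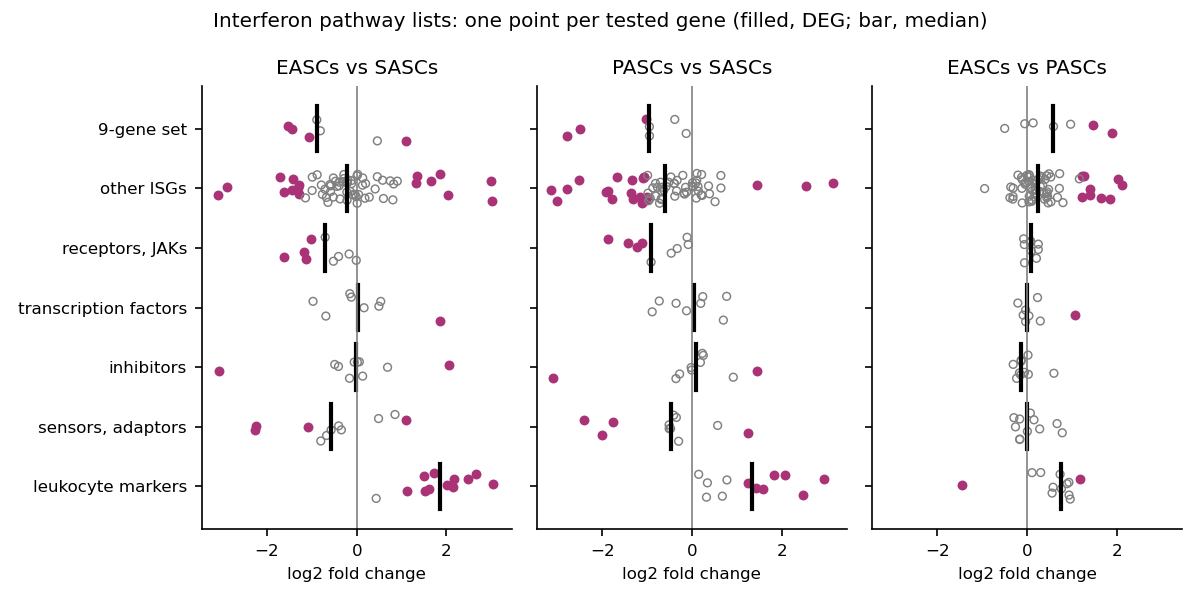
Log2 fold change (horizontal axes) of each tested gene in 7 lists for EASCs against SASCs, PASCs against SASCs, and EASCs against PASCs. Filled points are DEGs, open points are not, and black bars are the list medians; the medians of the receptors and Janus kinases were -0.70 and -0.91 against SASCs, whereas those of the leukocyte markers were 1.86 and 1.34.

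Markers of other cells moved with the depots as well. Of 15 leukocyte markers in the table, 12 were tested, and 11 were upregulated DEGs in EASCs and 7 in PASCs against SASCs, beside 13.6% and 12.0% of all genes. Their summed level was 57.9 to 63.4 CPM in SASCs, against 140 to 145 CPM in PASCs and 206 to 220 CPM in EASCs, an order of depots in which EASCs were highest, as they were for Isg15, Irf7, and Irf8. In EASCs against PASCs 9 of the 12 markers rose and 1 fell at any fold change, beside 16.1% and 14.5% of all genes, with a median log2 fold change of 0.75. The DEGs among them were Cd68, a gene of macrophages, with a log2 fold change of 1.17, and Cd74, a partner of class II antigen presentation, with -1.44. The macrophage gene Lyz2 alone was at 10.4, 58.1, and 85.6 CPM in the group means, and Cd3e of T cells had 0 counts in all 9 samples. The part of these cells in the levels of Isg15, Irf7, Irf8, Ptpn6, Zbp1, Cmpk2, and Bst2 was not tested.

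Summed endothelial markers were at 41.6 to 44.2 CPM in SASCs, against 11.5 to 14.3 CPM in PASCs and 29.3 to 32.1 CPM in EASCs. All 5 of these markers except Tek were downregulated DEGs in PASCs against SASCs, whereas Tek was upregulated, beside 14.9% of all genes downregulated and 12.0% upregulated. Tek was at 2.55 CPM in SASCs, against 8.30 CPM in PASCs and 8.08 CPM in EASCs in the group means. In EASCs against SASCs Kdr and Pecam1 fell, with log2 fold changes of -2.26 and -0.71, and Cdh5 (0.09, adjusted p = 0.561) and Vwf (-0.03, adjusted p = 0.928) did not pass the test. Summed adipocyte markers were at 107 to 118 CPM, 32.4 to 38.7 CPM, and 17.6 to 18.4 CPM. Summed mesothelial markers were at 15.2 to 16 CPM, 76.3 to 78.2 CPM, and 93.3 to 103 CPM. Their part in the interferon-stimulated genes was likewise not tested.

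To find genes with a like pattern, the log2 CPM of the 7 tested genes were each centered and averaged in every sample, and all tested genes outside the lists were ranked by Pearson r with that mean over the 9 samples. The mean was highest in SASCs, at 0.47 to 0.55, lowest in PASCs, at -0.54 to -0.41, and between them in EASCs, at -0.10 to 0.08. The most alike were Ptges, with r = 0.995, Ctsh, with 0.994, Apoe, with 0.993, and Rgs2 and Psen2, each with 0.991. Apoe, which encodes a lipid carrier, was at a mean of 830 CPM in SASCs, against 56.7 CPM in PASCs and 178 CPM in EASCs, and Ptges, which encodes a prostaglandin E synthase, was at 15.7, 5.04, and 9.06 CPM. The 9 points form 3 groups and share their libraries and scaling, so these r values describe the order of the depots, and the mean joins genes that were not ordered alike.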

How the data were processed

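RNA was sequenced from 9 samples, 3 each of SASCs, PASCs, and EASCs, grouped by their titles. The authors trimmed paired-end reads, aligned them to the rat genome with TopHat, and deposited whole-number counts per gene that were not normalized. The build is rn6 in the methods and rn5 in the processing notes, and the positions in the table match rn6. The counting tool and its use of strand are not given in the sources used here.

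Counts were scaled by TMM and filtered with filterByExpr in edgeR 4.0.16 (R 4.3.3), and 14770 genes were tested by the quasi-likelihood test in one model of 3 groups, with Benjamini-Hochberg adjustment over all genes. The study called DEGs with DEGseq, which treats reads as replicates, so a test across samples was used with the same thresholds. FPKM were computed from the counts and the lengths in the table. Fits were tested on simulated data. Replicates differed by more than sampling noise.

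The genes and lists were chosen with earlier results of these data known. Named from each pathway list were the DEGs against SASCs with the largest change, at most 5 a comparison, with Irf9, Ifnar1, Ifnar2, and Ifnb1 in any case, and the 5 most alike genes. Marker lists are given by counts and summed levels, and genes named from them were picked with their values known. A gene that the rule selects, and 1 ratio that used it, are not reported here. Alternatives were DESeq2 1.42.0, limma 3.58.1, other filters and scalings, a replicate block, and leaving out each sample.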

Additional observations from a re-analysis of the deposited data

Results flagged for a closer look

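For 2 genes the change from SASCs differed between the visceral depots by the direct test of EASCs against PASCs at more than 2-fold. Isg15 differed by a log2 fold change of 1.47 (edgeR, adjusted p = 5.90e-05), with 1.09 in EASCs and -0.38 in PASCs against SASCs, and it was higher in 3 of 3 EASC samples than in any PASC sample. Ifit3 differed by 1.89 (edgeR, adjusted p = 1.58e-04), with -0.89 in EASCs and -2.78 in PASCs, and it too was higher in 3 of 3 EASC samples. Ifit3 rests on 6 to 11 counts per PASC sample. On log2(CPM + 1) and log2(FPKM + 1) limma gave 0.96 and 0.87 for Isg15 and 0.81 and 0.51 for Ifit3, all under the 2-fold threshold.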

How the results depend on the processing

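Of 372 alternative values of the 21 member fold changes, 349 kept their direction and their side of the thresholds, 14 kept the direction and lost a call, 9 gained one, and 0 reversed. Total counts without TMM moved the median of all genes to -0.39 in EASCs and -0.33 in PASCs against SASCs. Upregulated members in EASCs were then 0, downregulated members 5 in EASCs and 5 in PASCs, and downregulated other interferon-stimulated genes 18 and 29, since every change carries that shift. Relative to it, Isg15 was at 1.08 in EASCs and Ifit3 at -2.79 in PASCs.

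A minimum of 1 CPM in every sample, which removes Ifit3 and Oas1a, left 2187 DEGs in EASCs, 2160 in PASCs, and 426 between them, beside 4105, 3979, and 1091. Members then numbered 1 down in PASCs and 1 up in EASCs against PASCs, and other upregulated genes 2 in EASCs, 1 in PASCs, and 2 between them. On log2(CPM + 1), which compresses low genes, limma gave 2648, 2542, and 506 DEGs. Upregulated members were 0 in EASCs against SASCs and 0 against PASCs, and the other genes were 4 up in EASCs, 10 down in PASCs, and 2 up between them. On log2(FPKM + 1) the DEGs were 1895, 1823, and 265. Upregulated members were again 0 and 0, downregulated members 1 in PASCs, and other genes 3 up and 5 down in EASCs, 8 down in PASCs, and 2 up between them.

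At any fold change with an adjusted p under 0.05, the counts were 10298, 10227, and 4530. Members were 2 up and 5 down in EASCs, 5 down in PASCs, and 3 up and 1 down in EASCs against PASCs. Other genes were 15 up and 34 down in EASCs, 8 and 41 in PASCs, and 27 and 4 between them. Over all genes, 35.5% rose and 34.3% fell in EASCs, 34.6% each way in PASCs, and 16.1% and 14.5% between them.

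With 1 sample left out, DEGs were 3982 to 4120 in EASCs, 3855 to 3987 in PASCs, and 1022 to 1076 between them. Members were 0 to 1 up and 3 to 4 down in EASCs, 0 up and 3 to 4 down in PASCs, and 2 to 3 up and 0 down between them. Other genes were 6 to 7 up and 9 to 12 down in EASCs, 2 to 3 up and 15 to 19 down in PASCs, and 7 to 10 up and 0 down between them. The 0 upregulated members in EASCs came without SASCs replicate 1.

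Deviations of samples with the same replicate number had r from -0.0252 to 0.0590 in 9 pairs. Of 9 samples, 2 correlated best with their own number in both other groups. With 3 samples in a group, these values cannot tell whether samples of one number share a rat or an isolation. The replicate block gave 4061, 3944, and 1067 DEGs, with the same counts of called members as without it. DESeq2, no filter, removal of ribosomal RNA genes, and fits of 2 groups changed no count by over 1.5 times. Genes of a few counts, Mx1 and Mx2 among them, cannot be resolved at this depth.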
